A study of Mus musculus with 12 samples.

Results

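Pecam1, Cdh5, Kdr, Flt1, Tek, Tie1, Angpt2, Edn1, Ednra and Ednrb were followed through 12 subcutaneous tumors. They are 10 listed genes of blood vessels and of endothelin signaling, among 34678 gene symbols in the tables. They were taken by name from the symbol column of the tables. All 10 were found and all 10 passed the filter of a mean of at least 0.1 FPKM (fragment counts scaled for gene length and library size), which kept 15350 genes for testing. The tumors grew in C57BL/6 mice, aged 5 to 8 weeks, from LLC1-shLkb1 cells, a mouse Lewis lung carcinoma line in which a short hairpin RNA lowers Lkb1 (gene symbol Stk11). That knockdown is shared by all 4 arms, so no arm is intact for Lkb1. Mice received vehicle with control immunoglobulin, palbociclib at 100 mg/kg by mouth, an anti-PD-1 antibody at 200 µg per mouse, or the combination of both, and the tumors were taken after 2 weeks of treatment. Each arm holds 3 tumors, named here by arm and number (vehicle 1). The labels do not say whether tumors of the same number in different arms are linked. Palbociclib inhibits the kinases CDK4 and CDK6, which drive cells into S phase, and anti-PD-1 blocks an inhibitory receptor of T cells.

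Endothelial cells line blood vessels and are held together by the adhesion molecules that Pecam1 and Cdh5 encode. Kdr and Flt1 encode receptors for vascular endothelial growth factors; Kdr carries most of the growth signal, and Flt1 binds ligand tightly while signaling weakly. Tek is the receptor for angiopoietins, Tie1 is its partner, and Angpt2 is the angiopoietin that endothelial cells release when vessels sprout or regress. Edn1 encodes endothelin-1, a peptide released mainly by endothelium. Its receptors are Ednra, known best from smooth muscle, and Ednrb, known from endothelium and also from melanocytes and glia.

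All 10 genes were expressed at low to moderate levels. Cdh5 was the highest at 6.07 to 18.1 FPKM, and Tek (0.197 to 0.727 FPKM) and Edn1 (0.0891 to 1.27 FPKM) were the lowest. The tables allow an estimate of 14900000 to 20300000 fragments per tumor. From the steps between FPKM values, Ednrb rested on 97 to 306 fragments per tumor, Ednra on 45 to 194, Kdr on 58 to 279, Tie1 on 96 to 346, Tek on 23 to 88 and Edn1 on 4 to 55. At the lowest of these numbers, counting alone gives a relative error of 10.2% for Ednrb and 50% for Edn1. The steps imply gene lengths of 7156 bases for Ednrb and 7558 for Tek, against 4266 and 4712 in the GENCODE M21 annotation. The reason for this mismatch was not tested, so these fragment numbers are uncertain. The steps were too fine for such an estimate in Pecam1, Cdh5, Flt1 and Angpt2. Stk11 was measured at 7.9 to 11.5 FPKM over the 12 tumors with a palbociclib effect of 0.01 ± 0.09 (log2, SE; adjusted p = 0.972, limma); with no Lkb1-intact arm these values do not check the knockdown.

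**Figure D1:**
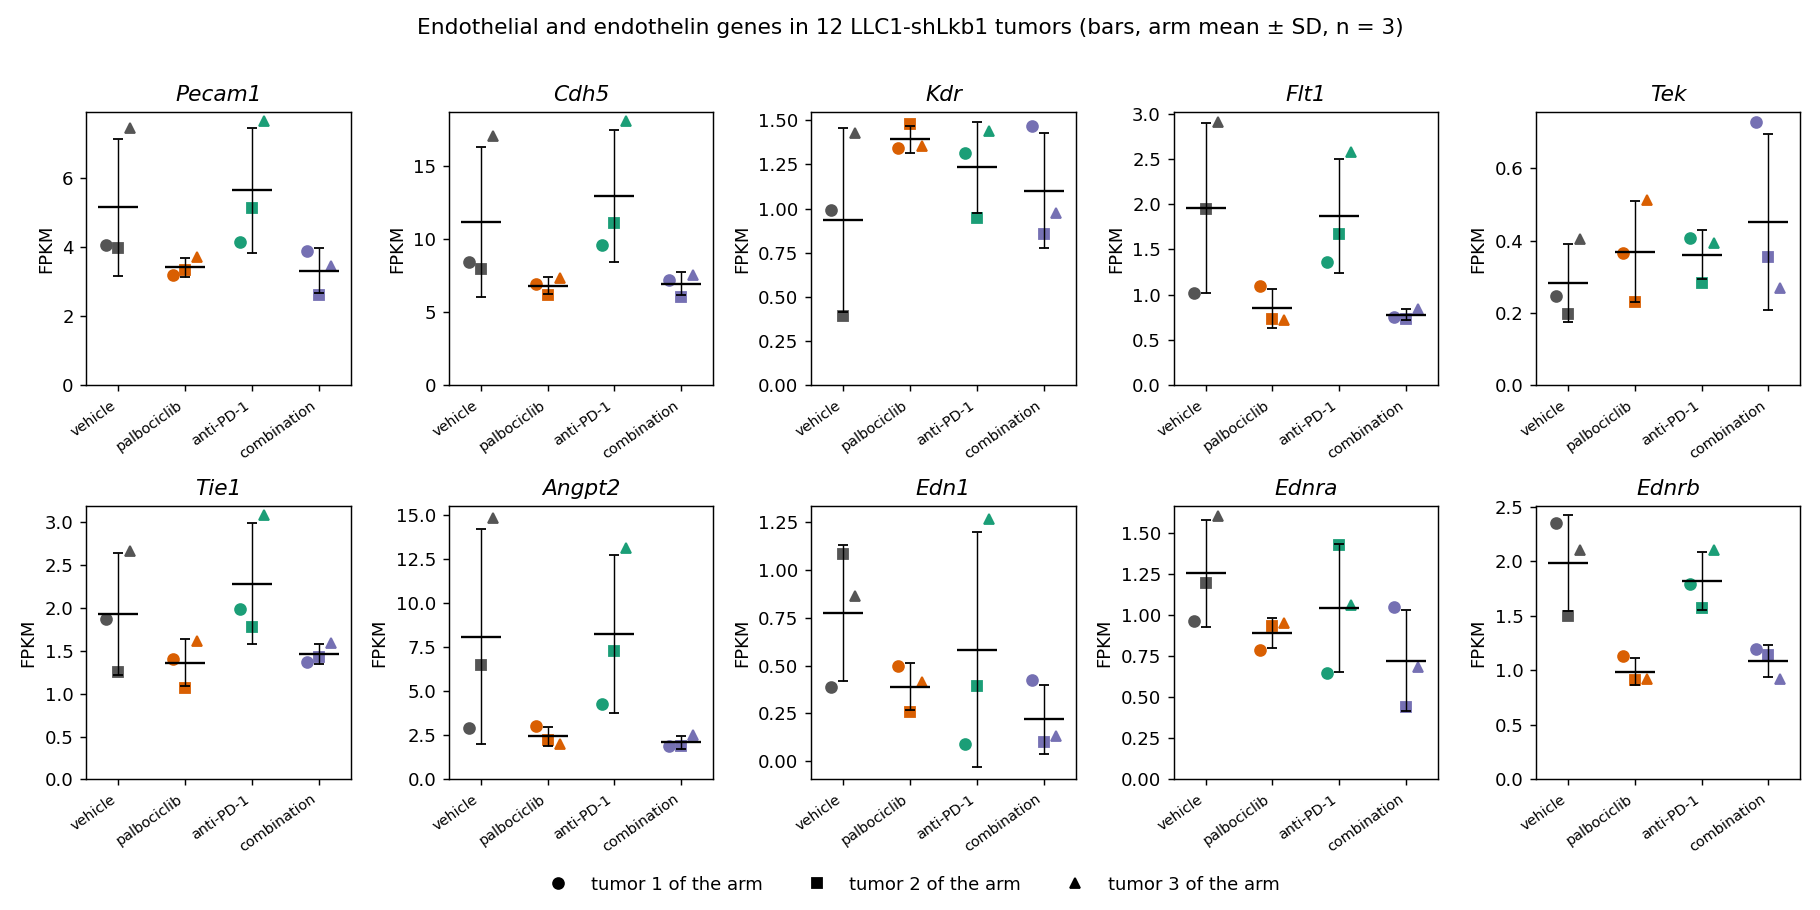
FPKM (vertical axes) of the 10 genes in each of the 12 tumors, by arm, with the arm mean ± SD (n = 3). In the panels of Pecam1, Cdh5 and Ednrb, all 6 tumors given palbociclib, alone or with anti-PD-1, lie below all 6 others. In every other panel the groups of 6 overlap.

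The first question was which of these genes differed when palbociclib was given. The palbociclib effect is the mean of 2 differences, palbociclib minus vehicle and combination minus anti-PD-1, on log2(FPKM + 0.1), so that all 12 tumors enter it. Treated here means given palbociclib, alone or with anti-PD-1. Untreated means not given palbociclib, so the anti-PD-1 arm counts as untreated. The effect was tested with limma and Benjamini-Hochberg adjustment over all 15350 genes. Ednrb was the only one of the 10 genes to pass an adjusted p of 0.05. By comparison, 48 genes passed among all tested (0.313%), of which 10 were lower with palbociclib (0.0651%). At an unadjusted p under 0.05, 6 of the 10 genes passed and all 6 were lower: Angpt2, Flt1, Ednrb, Cdh5, Pecam1 and Tie1. Among all genes tested, 20.5% passed that mark and 6.44% passed it in the lower direction. The median effect of the 10 genes was -0.67, against 0.06 over all genes tested, and 8 of the 10 effects were negative.

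Ednrb encodes the type B endothelin receptor and had the highest mean level of the 3 endothelin genes. It measured 2.35, 1.5 and 2.11 FPKM in the 3 vehicle tumors and 1.13, 0.912 and 0.919 FPKM in the 3 palbociclib tumors. In the anti-PD-1 arm it measured 1.79, 1.58 and 2.1 FPKM, and in the combination arm 1.2, 1.14 and 0.923 FPKM. The highest palbociclib-treated tumor therefore lay below the lowest untreated one, both without and with anti-PD-1. The arm means were 1.99 ± 0.443 (SD, n = 3) with vehicle, 0.987 ± 0.123 with palbociclib, 1.82 ± 0.266 with anti-PD-1 and 1.09 ± 0.144 FPKM with the combination. The palbociclib effect was -0.81 ± 0.14 (log2, SE; adjusted p = 0.0434, limma), a level of 57.1% of that without palbociclib, with a 95% interval of the fold from 0.462 to 0.705. Groups of 6 that do not overlap with the treated side lower were found for 0.41% of all genes tested, and for 1.02% with the treated side higher; among the 10 genes 3 were lower in this way and 0 higher.

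The call for Ednrb lay close to the threshold. It remained without vehicle 1, anti-PD-1 1 or combination 2, and the adjusted p rose over 0.05 when any other tumor was left out. That p was 0.0509 without vehicle 2, 0.104 without vehicle 3, 0.0663 without palbociclib 1, 0.102 without palbociclib 2 and 0.127 without palbociclib 3. It was 0.114 without anti-PD-1 2, 0.144 without anti-PD-1 3, 0.103 without combination 1 and 0.105 without combination 3. The effect itself stayed between -0.90 and -0.75 in these 12 fits. The adjusted p was also over the threshold with no filter on low genes (0.0698) and without the mean trend in limma (0.0543).

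The second endothelin receptor, Ednra, gave a smaller difference. It measured 0.963, 1.2 and 1.6 FPKM with vehicle and 0.785, 0.935 and 0.95 FPKM with palbociclib. With anti-PD-1 it measured 0.648, 1.43 and 1.06 FPKM, and with the combination 1.05, 0.439 and 0.682 FPKM. The arms without anti-PD-1 do not overlap, but the anti-PD-1 and combination arms do. Its palbociclib effect was -0.46 ± 0.23 (adjusted p = 0.278, limma), with a 95% interval from -0.95 to 0.04.

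Edn1, the ligand, was low and uneven from tumor to tumor. It measured 0.386, 1.08 and 0.862 FPKM with vehicle and 0.5, 0.258 and 0.412 FPKM with palbociclib. The anti-PD-1 tumors gave 0.0891, 0.392 and 1.27 FPKM, and with the combination 0.426, 0.0994 and 0.132 FPKM. The lowest value of all came from an anti-PD-1 tumor, and the arms overlap. Its palbociclib effect was -0.79 ± 0.46 (adjusted p = 0.347, limma), nearly the size of that of Ednrb but with an interval from -1.79 to 0.22.

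Other genes of the endothelin pathway were read from a list of 5. Edn2 and Edn3, which encode the other endothelin peptides, were at or near 0 in every tumor (at most 0.111 and 0.019 FPKM) and were not tested. Ece1, the main enzyme that cuts the endothelin precursor, had the highest level of the list. It measured 5.43, 5.06 and 6.24 FPKM with vehicle, 4.93, 5.71 and 4.9 with palbociclib, 7.4, 5.51 and 7.37 with anti-PD-1 and 4.09, 4.34 and 3.86 with the combination. The vehicle and palbociclib arms overlap, whereas the 3 combination tumors lie below the 3 anti-PD-1 tumors. The palbociclib effect on Ece1 was -0.40 ± 0.10 (adjusted p = 0.0867, limma), the largest of the list. Of the list, 3 genes were tested, Ece1, Ece2 and Mme. In limma 0 passed the threshold, Ece1 was lower at an unadjusted p below 0.05, and the median effect was 0.01.

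The reference promoters of the receptor genes are shown so that the pair of endothelin receptors can be set beside the pair of growth factor receptors, whose levels differ below. Each run is 230 bases, ends 20 bases before the RefSeq start on GRCm38.p6 and reads 5′ to 3′ along the gene. All 4 genes lie on the minus strand. Capitals mark GGAA or, for the other strand, TTCC, the core of sites bound by ETS factors, a family that controls many endothelial genes. The windows are chr14:103843722-103843951 for Ednrb, chr8:77724473-77724702 for Ednra, chr5:147726032-147726261 for Flt1 and chr5:75978476-75978705 for Kdr. In GENCODE M21, also on GRCm38, the last 3 lie upstream of their genes. The Ednrb window lies inside the span of the gene (chr14:103814625-103844402), whose annotated start is further upstream.
Ednrb: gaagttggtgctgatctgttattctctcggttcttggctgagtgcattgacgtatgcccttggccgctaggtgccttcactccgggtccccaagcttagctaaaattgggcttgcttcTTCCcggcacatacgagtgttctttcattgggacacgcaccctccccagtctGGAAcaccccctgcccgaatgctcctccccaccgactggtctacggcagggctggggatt
Ednra: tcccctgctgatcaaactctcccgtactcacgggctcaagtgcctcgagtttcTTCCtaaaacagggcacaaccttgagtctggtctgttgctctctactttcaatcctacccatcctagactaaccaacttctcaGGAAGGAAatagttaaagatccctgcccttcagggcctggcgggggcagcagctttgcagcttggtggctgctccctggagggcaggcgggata
Flt1: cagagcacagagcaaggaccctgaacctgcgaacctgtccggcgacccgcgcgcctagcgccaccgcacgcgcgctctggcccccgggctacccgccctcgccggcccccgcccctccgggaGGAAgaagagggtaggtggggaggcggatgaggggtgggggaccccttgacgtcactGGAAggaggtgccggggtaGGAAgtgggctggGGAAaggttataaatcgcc
Kdr: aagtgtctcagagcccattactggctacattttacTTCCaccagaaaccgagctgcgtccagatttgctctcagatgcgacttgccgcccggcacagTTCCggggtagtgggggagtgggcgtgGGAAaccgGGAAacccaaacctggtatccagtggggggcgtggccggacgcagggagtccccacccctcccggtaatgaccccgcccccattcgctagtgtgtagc

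The Ednrb window held 2 matches to GGAA on either strand, Ednra 3, Flt1 4 and Kdr 4. GGAA occurred in 91.9% of the 32851 windows of the same length in the table, so these matches do not set the 4 genes apart. The GC box GGGCGG occurred 2 times in Flt1 and 2 times in Kdr and was not found in Ednrb or Ednra, against 29.8% of all windows with at least 1 match. The ACGTG form of the hypoxia core (15.1% of all windows) was not found in any of the 4 windows. Its GCGTG form was not part of the search. That form or its reverse complement CACGC stands in the Ednrb, Flt1 and Kdr sequences above. The E2F forms TTTCCCGC (0.804%) and TTTGGCGC (0.374%) were not found in any of the 4 windows. Both strands were searched, and TTTCCCGC overlaps the ETS core on the other strand. The share of G and C was 57% in Ednrb, 54.3% in Ednra, 70% in Flt1 and 61.3% in Kdr, with a median of 51.7% over all windows. Of the 10 genes, 7 had a promoter in the table.

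Pecam1 and Cdh5, the adhesion molecules of endothelial junctions, were lower in every tumor given palbociclib. In bulk tumors, fewer endothelial cells and less RNA per endothelial cell cannot be told apart. Cdh5 measured 8.46, 7.99 and 17.1 FPKM with vehicle and 6.92, 6.19 and 7.39 FPKM with palbociclib. With anti-PD-1 it measured 9.63, 11.1 and 18.1 FPKM, and with the combination 7.21, 6.07 and 7.59 FPKM. The 6 treated tumors lay close together, and vehicle 3 and anti-PD-1 3 stood well above the rest. For Cdh5 the effect was -0.73 ± 0.20 (adjusted p = 0.110, limma).

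Pecam1 measured 4.05, 3.96 and 7.42 FPKM with vehicle and 3.18, 3.34 and 3.71 FPKM with palbociclib. With anti-PD-1 it measured 4.15, 5.11 and 7.64 FPKM, and with the combination 3.88, 2.6 and 3.46 FPKM. As for Cdh5, the groups of 6 do not overlap and the same 2 untreated tumors were the highest. The palbociclib effect was -0.62 ± 0.19 (adjusted p = 0.125, limma). Neither gene passed the threshold over all genes, and neither did so in any of the 12 fits that left out 1 tumor.

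The effects on the 2 growth factor receptors had opposite signs, and neither passed the adjusted threshold. Flt1 measured 1.02, 1.95 and 2.9 FPKM with vehicle and 1.1, 0.733 and 0.721 FPKM with palbociclib. The anti-PD-1 tumors gave 1.36, 1.67 and 2.58 FPKM, and with the combination 0.759, 0.737 and 0.849 FPKM. Only palbociclib 1 reached into the range of the untreated tumors, at a level just above vehicle 1. The palbociclib effect was -1.07 ± 0.24 (adjusted p = 0.0778, limma).

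Kdr measured 0.991, 0.39 and 1.43 FPKM with vehicle and 1.34, 1.48 and 1.35 FPKM with palbociclib. With anti-PD-1 it measured 1.32, 0.947 and 1.44 FPKM, and with the combination 1.47, 0.858 and 0.973 FPKM. Vehicle 2 was the lowest of all and the groups of 6 overlap. The palbociclib effect was 0.25 ± 0.25 (adjusted p = 0.587, limma), with a 95% interval from -0.31 to 0.81, which lies wholly above that of Flt1 (-1.59 to -0.55). The difference between the 2 genes was not tested.

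Of the 3 angiopoietin pathway genes among the 10, the ligand gene Angpt2 gave larger differences than Tek and Tie1. Angpt2 measured 2.95, 6.5 and 14.9 FPKM with vehicle and 3.02, 2.26 and 2.03 FPKM with palbociclib. The anti-PD-1 tumors gave 4.3, 7.3 and 13.2 FPKM, and with the combination 1.92, 1.88 and 2.54 FPKM. The treated tumors were uniformly low, while the untreated ones spread widely and vehicle 1 fell just under palbociclib 1. The effect of -1.60 ± 0.36 was the largest of the 10 genes in size but had an adjusted p of 0.0797 (limma). Both Angpt2 and Flt1 passed the threshold when vehicle 1 was left out (adjusted p = 0.0276 for each, limma) or anti-PD-1 1 (0.0327 for Angpt2 and 0.0362 for Flt1). These fits called 4.51% and 4.94% of all genes tested, against 0.313% with all 12 tumors.

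Tie1 measured 1.87, 1.25 and 2.67 FPKM with vehicle, 1.41, 1.07 and 1.62 with palbociclib, 1.99, 1.78 and 3.09 with anti-PD-1 and 1.37, 1.43 and 1.59 with the combination. Vehicle 2 lay within the treated range, and the effect was -0.50 ± 0.19 (adjusted p = 0.188, limma). Tek, the receptor itself, measured 0.248, 0.197 and 0.404 FPKM with vehicle, 0.367, 0.231 and 0.511 with palbociclib, 0.408, 0.284 and 0.393 with anti-PD-1 and 0.727, 0.355 and 0.269 with the combination. The arms overlap and the effect was 0.23 ± 0.25 (adjusted p = 0.617, limma).

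Separate comparisons of the arms gave fewer calls. Against vehicle, palbociclib alone changed Ednrb by -0.92 ± 0.20 (adjusted p = 0.105, limma), and the combination changed it by -0.80 ± 0.20 (adjusted p = 0.184). These comparisons share the 3 vehicle tumors. None of the 10 genes passed in either, where 0.143% and 0.013% of all genes did; at an unadjusted p under 0.05, 3 and 5 of the 10 genes passed, beside 13.8% and 17% of all genes. Against anti-PD-1, the combination changed Ednrb by -0.70 ± 0.20 (adjusted p = 0.327), and 0 of 10 passed (0.00651% of all genes), while 5 had an unadjusted p below 0.05, as did 11.8% of all genes. The combination against palbociclib also gave 0 of 10 (0.00651%), and 0 had an unadjusted p below 0.05 (4.52% of all genes).

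Anti-PD-1 moved none of the 10 genes past the threshold. Against vehicle the effect on Ednrb was -0.10 ± 0.20 (adjusted p = 0.908, limma), and the effect of anti-PD-1 over both levels of palbociclib was 0.01 ± 0.14, with a 95% interval from -0.29 to 0.32. The widest anti-PD-1 effect among the 10 genes was that of Edn1, -0.72 ± 0.46 (adjusted p = 0.741). In both of these anti-PD-1 comparisons, limma called 0 of the 10 genes and 0% of all genes, and 0 of the 10 were under an unadjusted p of 0.05, where 8.4% of all genes were against vehicle and 6.77% over both levels of palbociclib. The interaction (combination minus anti-PD-1, less palbociclib minus vehicle) likewise gave 0 of 10 and 0% of all genes, with 0 of 10 under an unadjusted p of 0.05 (5.73% of all genes). For Ednrb it was 0.23 ± 0.28 (adjusted p = 0.951), with an interval from -0.38 to 0.84, and the widest was that of Kdr (-0.84 ± 0.51, adjusted p = 0.893).

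The second question was whether Ednrb moved apart from the general endothelial genes. A separate list of 24 other endothelial genes, of which 23 passed the filter, served as the reference. Of these 23, 19 had a negative palbociclib effect, 10 were lower and 1 higher at an unadjusted p under 0.05, and 0 passed the adjusted threshold in limma, with a median of -0.36. Plvap, a gene of fenestrated endothelium and the highest of the list, gave -0.21 (adjusted p = 0.483), and Tmem100 gave the largest effect in size, 1.39 ± 0.54 (adjusted p = 0.192). The summed level of the list was 28.2 to 41.3 FPKM in the treated tumors and 38.0 to 63.7 FPKM in the others.

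Ednrb was then expressed relative to the mean log2 level of those 23 genes in the same tumor. This difference was 0.68, 0.44 and 0.37 with vehicle and 0.02, -0.08 and -0.48 with palbociclib. It was 0.39, 0.26 and 0.23 with anti-PD-1 and -0.07, 0.32 and -0.15 with the combination. Of the treated tumors, 5 of 6 lay below every untreated tumor, and combination 2 lay among the anti-PD-1 tumors. The palbociclib effect on this relative level was -0.47 (two-sided exact permutation test within anti-PD-1 levels, p = 0.015, where 0.005 is the smallest of 400 relabelings), that is 0.722 times. It ranged from -0.54 to -0.39 when 1 tumor was left out (exact permutation p = 0.005 to 0.025). With labels exchanged only within same-numbered tumors (replicate block), the exact permutation p was 0.0625, where 0.03125 is the smallest of 64 relabelings, and the call was lost. With mural cell markers as the reference the effect was -0.48 (p = 0.005, exact permutation test). That list includes Des, which was highest in palbociclib 3 (5.62 FPKM) and combination 2 (5.80 FPKM), where skeletal muscle markers were highest too. A mural reference without Des was not tested. Against the 6 general endothelial genes Pecam1, Cdh5, Kdr, Flt1, Tek and Tie1 the effect on Ednrb was -0.40, without a test. Arm means on this last scale were 0.02 (vehicle), -0.63 (palbociclib), -0.32 (anti-PD-1) and -0.48 (combination). All 3 palbociclib tumors lay below the 3 vehicle tumors, whereas combination 2 (-0.22) lay above anti-PD-1 2 (-0.30) and anti-PD-1 3 (-0.50). Relative to Ednra the effect was -0.35 (p = 0.235, exact permutation test), and the arms overlapped.

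**Figure D2:**
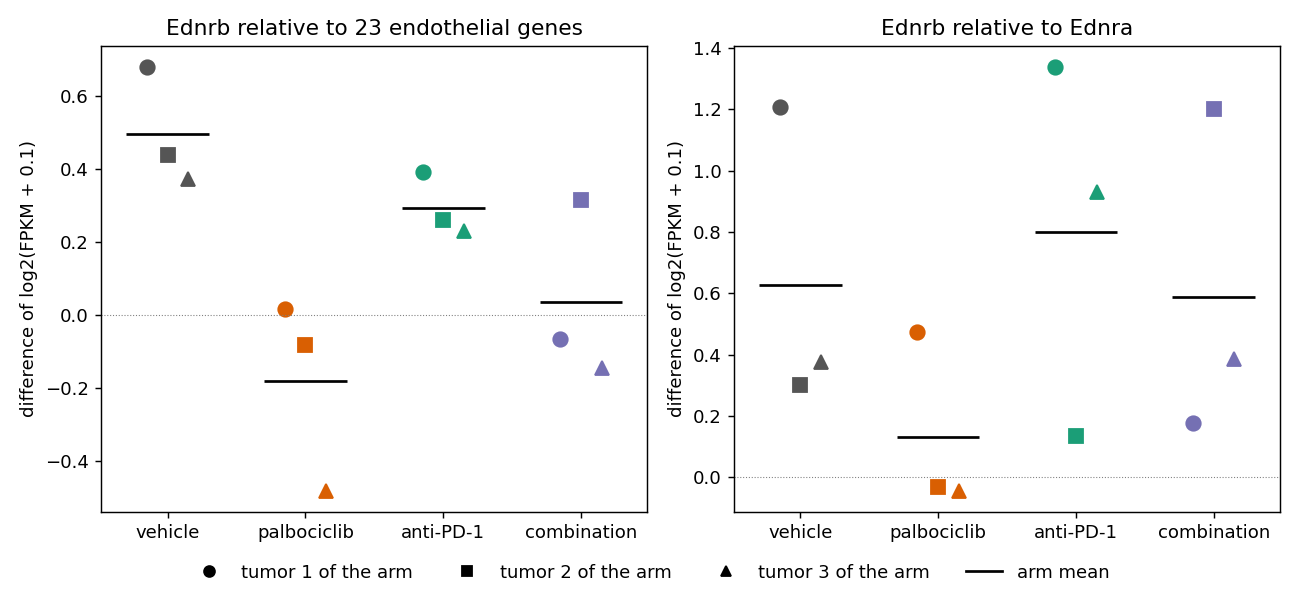
Log2(FPKM + 0.1) of Ednrb minus the mean of 23 endothelial genes (left) or minus Ednra (right) in each of the 12 tumors, by arm, with arm means as lines. On the left the palbociclib arm has a mean of -0.18 and the vehicle arm 0.50, and combination 2, at 0.32, lies apart from the other combination tumors; on the right the arms overlap.

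The other genes differed on the same relative scale, which is given here without a test. Relative to the 23 endothelial genes, Angpt2 had an effect of -1.26, Flt1 -0.73, Edn1 -0.44, Cdh5 -0.39, Pecam1 -0.28, Tie1 -0.16 and Ednra -0.12. Kdr stood at 0.59 and Tek at 0.57. Ednrb at -0.47 thus lay beyond Cdh5 and Pecam1 and short of Flt1 and Angpt2. In limma with the endothelial level as a covariate, the effect on Ednrb was -0.61 ± 0.17 (adjusted p = 0.212), that on Cdh5 -0.30 ± 0.19 (adjusted p = 0.488), on Pecam1 -0.20 ± 0.18 (adjusted p = 0.604) and on Tie1 -0.07 ± 0.18 (adjusted p = 0.863). Angpt2 had -1.25 ± 0.48 (adjusted p = 0.289) and Flt1 -0.88 ± 0.32 (adjusted p = 0.281). The intervals of Ednrb (-0.98 to -0.24), Angpt2 (-2.32 to -0.19) and Flt1 (-1.60 to -0.17) lay below 0, and those of Cdh5, Pecam1 and Tie1 included 0; none of the 10 genes passed the adjusted threshold in this fit. In the same fit Kdr had 0.79 ± 0.25 and Tek 0.72 ± 0.26, with intervals above 0 and adjusted p-values of 0.250 and 0.283.

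**Figure D3:**
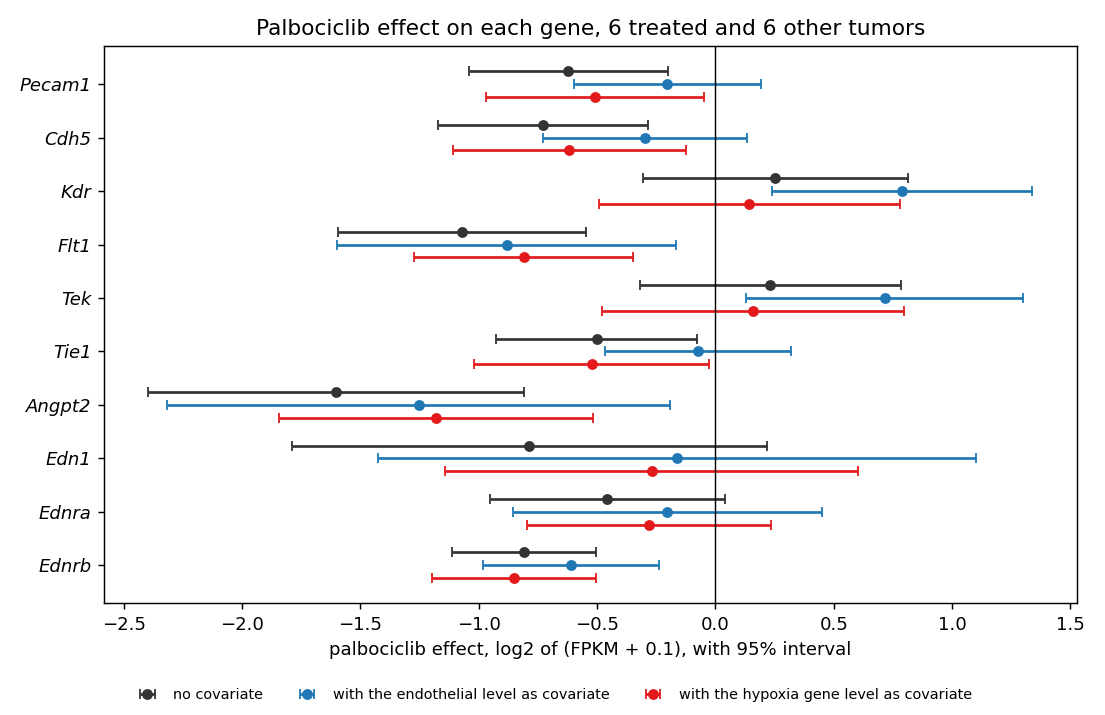
Palbociclib effect (log2 of FPKM + 0.1, horizontal axis) on each of the 10 genes with its 95% interval, from limma without a covariate, with the mean level of 23 endothelial genes as covariate and with the mean level of 8 hypoxia genes as covariate. The Ednrb effect lies between -0.85 and -0.61 in the 3 fits, and its adjusted p (limma) is under 0.05 only without a covariate. The hypoxia covariate was chosen after the data were seen. Cdh5 goes from -0.73 to -0.30 with the endothelial level, and the effects on Kdr and Tek lie on the positive side in all 3 fits.

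In a list of 9 sprouting and Notch genes, 8 effects were negative, 6 were lower and 1 higher at an unadjusted p under 0.05, the median was -0.58, and 0 passed the adjusted threshold in limma. Esm1, a marker of tip cells, measured 3.36, 3.59 and 19 FPKM with vehicle, 1.59, 0.513 and 0.432 with palbociclib, 2.19, 6.92 and 16.7 with anti-PD-1 and 1.01, 1.67 and 0.647 with the combination. The treated tumors were all below the others, and the effect was -2.72 ± 0.57 (adjusted p = 0.0715, limma), the largest of the list. Apln, the highest of the list, gave -0.46 (adjusted p = 0.244). Among 9 genes of the vascular growth factor axis found in the tables, 8 were tested, 3 were lower and 1 higher at an unadjusted p under 0.05, 0 passed the adjusted threshold and the median was -0.20. Pgf, the Flt1 ligand placental growth factor, had the largest effect there, -2.06 ± 0.64 (adjusted p = 0.128), and Nrp2, the highest of that list, gave -0.18 (adjusted p = 0.305).

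Similarity of pattern was read from Pearson's r over the 12 tumors among genes whose mean reached 1 FPKM, as a description. The tumors share arms, so part of any r comes from the arm means. The 5 genes closest to Cdh5 were Pecam1 (r = 0.976), Adgrf5 (0.930), Dll4 (0.926), Angpt2 (0.925) and Cldn5 (0.924). Adgrf5 and Cldn5 are in the endothelial list and Dll4, a Notch ligand of tip cells, in the sprouting list. The 5 closest to Ednrb were Dbn1 (0.934), Wdr20 (0.903), Chd3 (0.880), Zfp334 (0.871) and Gm14288 (0.870), and none of these is on the endothelial, sprouting or mural lists. Between Ednrb and Cdh5 r was 0.746 over the 12 tumors and 0.358 after the arm means were removed, whereas between Pecam1 and Cdh5 it was 0.957 after that step. Also with arm means removed, Ednrb had r of 0.719 with Kdr, 0.593 with Tie1 and 0.615 with the mean of the 23 other endothelial genes.

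Within the arms, 2 patterns were visible among the 10 genes. With arm means removed, Angpt2, Flt1 and Edn1 had r of 0.714, 0.702 and 0.703 with the mean log2 level of 8 hypoxia genes, and Ednrb had -0.22. The same 3 genes had r of -0.65, -0.63 and -0.42 with the mean of 5 leukocyte markers, and Ednrb had 0.04. The leukocyte level was not used as a covariate. With the mean of 11 mural cell markers, Kdr had 0.837, Ednrb 0.805, Tie1 0.632 and Tek 0.607, and Angpt2 had -0.11. The mean log2 level of the hypoxia genes was 3.61, 5.82 and 5.36 with vehicle and 2.91, 5.32 and 5.39 with anti-PD-1, against 3.29 to 4.41 in the 6 treated tumors. Vehicle 1 thus lay within the treated range, anti-PD-1 1 below it and the other 4 untreated tumors above it. All 8 hypoxia effects were negative with a median of -0.79, 1 was under an unadjusted p of 0.05 and 0 passed the adjusted threshold in limma. Slc2a1, the highest of them, gave -1.11 (adjusted p = 0.248) and Adm, the largest effect, -1.46 (adjusted p = 0.274).

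**Figure D4:**
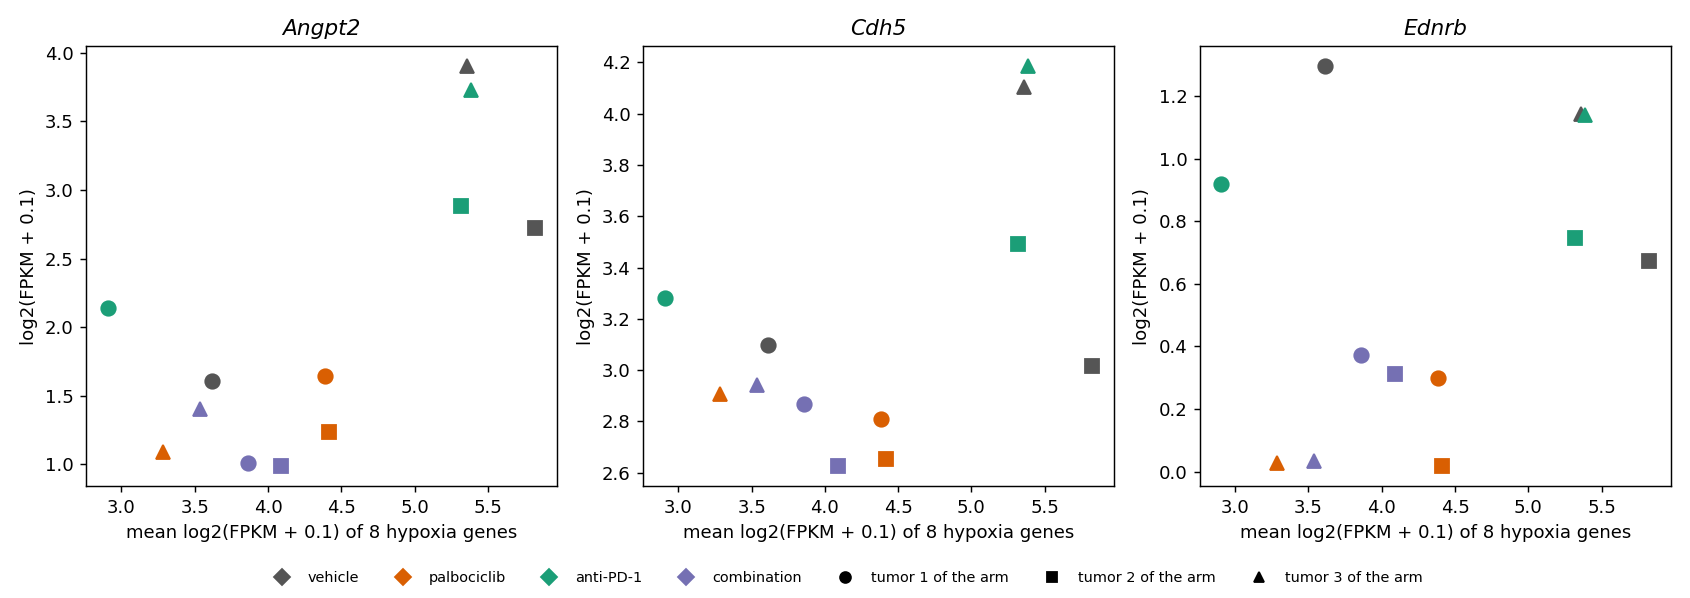
Log2(FPKM + 0.1) of Angpt2, Cdh5 and Ednrb (vertical axes) against the mean log2(FPKM + 0.1) of 8 hypoxia genes (horizontal axes) in the 12 tumors, colored by arm. Angpt2 is highest in vehicle 3 (3.90) and anti-PD-1 3 (3.73), at hypoxia levels of 5.36 and 5.39. Vehicle 2, with the highest hypoxia level (5.82), has Angpt2 at 2.72. Ednrb is highest in vehicle 1, at a hypoxia level of 3.61. It is lower in the 6 treated tumors than in all 6 others, 2 of which have hypoxia levels of 2.91 and 3.61. Whether hypoxia sets the level of these genes was not tested.

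With the hypoxia level as a covariate, chosen after these values were seen, the effect on Ednrb was -0.85 ± 0.16 (adjusted p = 0.0980, limma). That on Angpt2 went from -1.60 to -1.18 ± 0.30 (adjusted p = 0.194), on Flt1 from -1.07 to -0.81 ± 0.21 (adjusted p = 0.194) and on Edn1 from -0.79 to -0.27 ± 0.39 (adjusted p = 0.797). With the mural level as a covariate, which again includes Des, Ednrb gave -0.67 ± 0.12 (adjusted p = 0.0351, limma).

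Other cells that could carry these genes were read from marker lists. In the 11 mural cell markers, 5 were lower at an unadjusted p under 0.05, 0 passed the adjusted threshold in limma and the median was -0.53. Their summed level was 19.9 to 30.2 FPKM in the treated tumors and 17.3 to 53.3 FPKM in the others, with Acta2 the highest (-0.53, adjusted p = 0.479) and Kcnj8 the largest effect (-0.96, adjusted p = 0.102). Melanocyte markers were near 0: Tyr was at 0 in all 12 tumors, and the 5 markers summed to 0.0868 to 0.592 FPKM in the treated tumors and 0.0914 to 0.403 FPKM in the others. Pmel, the only one tested, gave 0.06 (adjusted p = 0.935). Of the 3 lymphatic markers 2 were tested, and Lyve1, the highest, had the largest effect (1.06, adjusted p = 0.350, limma). Pdpn had an effect in the other direction (-0.49), and 0 of the 2 were under an unadjusted p of 0.05. Prox1, at most 0.013 FPKM, was not tested.

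Markers of immune cells and of tissue around the tumor varied between tumors, and no gene of these lists passed the adjusted threshold in limma. All 5 leukocyte markers had positive effects (median 0.56), 3 of them at an unadjusted p under 0.05. Their sum was 526 to 1338 FPKM in the treated tumors and 247 to 1061 FPKM in the others, with Lyz2 the highest (1.01, adjusted p = 0.236) and Csf1r the largest effect (1.14, adjusted p = 0.189). Fat markers summed to 1.16 to 275 FPKM in the treated tumors and 0.813 to 4.75 FPKM in the others. Their median effect was 2.83, with 3 of 5 higher at an unadjusted p under 0.05. Fabp4 was the highest (2.10, adjusted p = 0.283) and Adipoq, the largest effect, gave 4.47 (adjusted p = 0.138). Skeletal muscle markers (median 1.36) were led in level and effect by Acta1 (2.10, adjusted p = 0.542), and skin markers (median 1.71) by Krt14 (2.75, adjusted p = 0.286), with 0 of 5 under an unadjusted p of 0.05 in either list. The skin values rest on palbociclib 2, where the markers summed to 359.5 FPKM, against at most 0.91 in any other tumor. Muscle markers summed to 147 FPKM in palbociclib 3, 143 in combination 2 and 51.1 in vehicle 1, and fat markers to 112 in palbociclib 1 and 275 in combination 1. Fibroblast markers had a median of 0.27, with Col3a1 the highest (0.04, adjusted p = 0.922) and Col1a2 the largest effect (0.93, adjusted p = 0.637). Platelet markers had a median of -0.09, with Pf4 the highest (-0.09, adjusted p = 0.833) and Ppbp the largest effect (-2.31, adjusted p = 0.150). All 8 cell cycle genes had positive effects (median 0.24), 4 of them at an unadjusted p under 0.05 in limma, beside 20.5% of all genes in either direction. For 2 of the 8 the groups of 6 did not overlap, with the treated side higher, as for 1.02% of all genes. Top2a was the highest (0.24, adjusted p = 0.179) and Ccne1 the largest effect (0.66, adjusted p = 0.0828). The part of these tissues in the level of the 10 genes was not tested.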

How the data were processed

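Bulk RNA was sequenced from 12 tumors, 3 in each of 4 arms. For each tumor there was 1 table, whose values the authors deposited as FPKM. The submitters' processing notes name HISAT2 and GRCm38/mm10; the counting tool and annotation are not given in the sources used here. Of 34745 entries, 67 repeated a symbol, and the one with the highest mean was kept. Values were put on the scale log2(FPKM + 0.1), and genes whose mean reached 0.1 FPKM were fitted by arm in limma 3.58.1 (R 4.3.3; lmFit, contrasts.fit, eBayes with a trend). P-values were adjusted by Benjamini-Hochberg over 15350 genes (threshold 0.05). Differences on this scale understate changes of low genes. The fit was tested on simulated data. For relative levels, a two-sided exact permutation test used 400 relabelings of palbociclib within anti-PD-1 levels (Python 3.11.15, numpy 2.4.6). As the labels do not say how the mice were housed or processed, p-values measure the spread between these tumors. Fragments were estimated from steps between FPKM values, with 0.06 as the tolerance for a whole number, and cover counting error only. The genes and lists were chosen with earlier results of these data known. From each list the text names the gene with the highest mean, the one with the largest effect and any called, and for Ednrb and Cdh5 the 5 most similar genes. Edn2, Edn3, Ece2, Mme, Tyr, Pdpn, Prox1 and Des are named beyond that rule, after their values were seen. Promoters are from RefSeq (GRCm38.p6). Glial cell markers are not reported here.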

Additional observations from a re-analysis of the deposited data

How the results depend on the processing

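The palbociclib effect on Ednrb kept its sign in all 23 alternatives, from -0.94 with quantile normalization to -0.51 with a pseudocount of 1. Its adjusted p rose over 0.05 with no filter or no trend (effect -0.81 in both), with the endothelial covariate (-0.61) and with the hypoxia covariate (-0.85), the last chosen after seeing the data; without 1 tumor the effect ran from -0.90 to -0.75. In these 4 fits 0 of the 10 genes were called, and without 1 tumor 0 to 3. All genes called numbered 48 and became 11 with no filter, 0 without the trend, 29 with the endothelial, 213 with the mural and 15 with the hypoxia covariate, and 0 to 758 without 1 tumor. Quantile normalization moved the median of all genes from 0.06 to -0.03 and the calls from 38 higher and 10 lower to 28 and 16. With a replicate block, 129 genes were called, and Ednrb relative to endothelial genes kept its effect of -0.47 with an exact p of 0.0625 from 64 relabelings. Deviations from the arm means had r over 0.1 in 7 of 18 same-numbered pairs and 9 of 36 others. All 3 pairs of vehicle and anti-PD-1 and 2 of the 3 pairs of vehicle and combination were over 0.1. In the comparisons of these arms the block changed no call among the 10 genes. Of the 6 pairs compared in the palbociclib effect 1 was over 0.1, and those 6 were treated as unpaired. No sign reversed for any of the 10 genes in the palbociclib effect. In the other comparisons of arms 0 of the 10 genes were called in limma under every alternative run. Depth limits Edn1 and Tek most. The cause of these shifts was not tested.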
